A study of Mus musculus with 9 samples.

Results

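Natural killer (NK) lectin-like receptors are surface proteins that NK cells and some T cells use to read signals on neighbouring cells. Their genes carry the Klr prefix, and most of them lie together on mouse chromosome 6 in a cluster called the NK gene complex. The 7 receptor genes Klrd1, Klrc1, Klrc2, Klre1, Klrk1, Klrb1c and Klrg1 are described here with Styk1, which encodes a kinase-like membrane protein, giving 8 genes of the 14004 in the deposited table. The genes were chosen by name with their levels by tissue in these same 9 libraries already known, so they were selected on those values. Their tissue differences and adjusted p-values are therefore a description and not independent evidence. All 8 genes passed the filter on low values.

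The cells were iNKT1 cells, the T-bet-expressing subset of invariant natural killer T cells, which are T cells with a nearly fixed receptor for lipids. They came from thymus, liver and spleen of untreated C57BL/6 mice with genotype Tbx21CreTg;Rosa26-LSL-YFP+/+, and each tissue had 3 RNA-seq libraries. In all 3 groups the Cre recombinase was driven by Tbx21, the gene for T-bet, so YFP marks cells that have expressed it or descend from such cells. The series states that replicates were independent, but not whether libraries with the same number came from the same mice, and the age and the sorting gate are not given in the sources used here.

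Values are the authors' normalised read counts, from which whole reads could be recovered approximately. Recovered depth ran from 3877694 reads in liver replicate 3 to 39568081 in spleen replicate 3, and 10476 to 13038 genes had a read. Klrb1c, as a described gene, was left out of the iNKT1 markers. The summed level of the 10 others was 85065 to 101642 in thymus, 125176 to 144765 in liver and 84846 to 105373 in spleen. Each of these 10 markers had reads in every tissue, but not in every library. In thymus replicate 1 Slamf6 had no read and Slamf1 was 8.99, and Ifng was 24.31 in thymus replicate 2. Cd3e and Il2rb made up most of each sum. Markers of other cell types also had reads, some by tissue and some in single libraries. The summed level of 6 hepatocyte markers was 1390 to 1717 in liver, 109.9 to 868 in thymus and 0.525 to 40.53 in spleen. Alb was 1288, 1588 and 1172 in the liver libraries and 268.3 in thymus replicate 2. Trf alone had its highest mean in thymus, at 109.8 to 598.4 there and 7.69 to 43.47 in liver, and it made up most of the thymus sums. Cd8a was 1116, 145.9 and 85.84 in liver and had no read in spleen. The B cell genes Ms4a1, Cd79a and Cd79b had no read in thymus and were highest in spleen replicate 1, where Cd79a was 624.9, and the macrophage gene Csf1r was 1297 there. Among the liver libraries, replicate 1 had the highest summed B cell and myeloid markers, though Cd79a, Csf1r and Lyz2 were highest in replicate 3. The immature thymocyte genes Rag1, Dntt and Arpp21 were 486.2, 11.27 and 153 in thymus replicate 3 and at most 5.81 in any other library. Cd4, the other marker of that list with values, went the other way. It was 985.3 in thymus replicate 3, its lowest value, 2580 and 7393 in thymus replicates 1 and 2, and up to 10054 elsewhere. With Cd4 included, the summed level of these markers was lowest in thymus replicate 3, at 1636. The summed level of 10 NK cell markers was 5645 to 10327 in thymus, 2895 to 10505 in liver and 3461 to 3742 in spleen. Its members went different ways: Gzma, Klra4, Klra8 and Klri2 had their highest mean in thymus, whereas the NK cell receptor gene Ncr1 had no read in any thymus library, was 615.6, 13.7 and 131.4 in liver replicates 1, 2 and 3, and at most 35.91 in spleen. The part of these other cell types in the results below was not tested. In bulk RNA, fewer cells that express a gene and less RNA of that gene per cell cannot be told apart.

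The receptors work as pairs and through adaptors. CD94, the product of Klrd1, pairs with NKG2A (Klrc1), which inhibits through phosphatases such as SHP-1, or with NKG2C (Klrc2), which activates through DAP12, and both pairs bind Qa-1, encoded by H2-T23. NKG2D (Klrk1) activates through DAP10, encoded by Hcst, or DAP12 and binds stress-induced ligands, NK1.1 (Klrb1c) activates through the Fc receptor gamma chain, encoded by Fcer1g, and KLRG1 inhibits on binding E-cadherin.

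In mm10, the build named in the submitters' processing notes, 5 of the receptor genes form a compact block: Klre1 at chr6:129577905-129585827, Klrd1 at chr6:129591782-129598775, Klrk1 at chr6:129610323-129623864, Klrc2 at chr6:129647496-129660689 and Klrc1 at chr6:129666015-129678973. Klre1 and Klrd1 are on the plus strand and the other 3 on the minus strand. Klrb1c, on the minus strand at chr6:128778485-128789215, and Styk1, on the minus strand at chr6:131299142-131353597, lie on either side of this block. Klrg1, on the minus strand at chr6:122270596-122282882, lies outside the complex. These positions are from the GENCODE M21 annotation. The exons of Klrb1c overlap those of Gm44511, a gene model that has no entry in the deposited table.

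Klrc1 and Klrc2 are close copies, which bears on how reads could be shared out between them. Their coding sequences were 82.8% identical over 714 aligned bases, but the identity was 67.2% over the first 366 bases of the Klrc1 coding sequence and 97.5% over the rest, which holds most of the lectin domain. The longest run common to both covers the last 100 coding bases, from base 633 to base 732 of Klrc1, and a read of 75 bases inside it fits either gene:
Klrc1 and Klrc2: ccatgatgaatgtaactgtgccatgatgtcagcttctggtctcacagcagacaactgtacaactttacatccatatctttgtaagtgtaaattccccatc
The 75-base stretch that differs most lies at bases 252 to 326 of Klrc1 and bases 234 to 308 of Klrc2. It is shown because reads from it separate Klrc1 from Klrc2, and it was chosen without regard to Klrc3. Capitals mark the 34 positions that differ:
Klrc1: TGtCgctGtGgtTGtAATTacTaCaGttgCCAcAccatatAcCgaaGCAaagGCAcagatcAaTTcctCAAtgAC
Klrc2: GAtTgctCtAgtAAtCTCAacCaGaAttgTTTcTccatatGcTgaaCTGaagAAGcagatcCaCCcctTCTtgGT
Of all 75-base words in annotated Klrc1 transcripts, 24.7% also occur in Klrc2, and of those in Klrc2 8.32% occur in Klrc1. Klrc3 is a closer copy of Klrc2, with coding sequences 94.9% identical over 663 aligned bases, and 3.01% of the Klrc2 words occur in Klrc3. How such reads were counted is not given in the sources used here, so the levels of Klrc1, Klrc2 and Klrc3 are uncertain.

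RefSeq promoter windows (GRCm38.p6) were found for 5 of the 8 genes, Klrb1c, Klre1, Klrk1, Klrc2 and Klrc1. The 250 bases before each start were searched on both strands for 3 motifs, chosen after the sequences had been seen, for the factor families of Runx3, Ets1 and Tbx21. The RUNX core TGTGGT, or ACCACA on the other strand, occurred in 5 of 5 genes and in 6 of their 7 windows, against 14% of all 32851 windows. The ETS core AGGAAG occurred in 2 of 5 genes and in 2 of the 7 windows, against 29.5% of all windows. For the T-box core GGTGTGA it was 0 of 5 genes and 0 of 7 windows, against 3.33%. The windows of Klre1 overlap each other, as do those of Klrc2, so the 7 are not separate sequences. The windows around the RUNX-type letters, in capitals, are shown for 4 of the genes, read in the direction of the gene:
Klrk1, minus strand, chr6:129623961-129624020: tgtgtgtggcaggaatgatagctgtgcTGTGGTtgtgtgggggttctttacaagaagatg
Klrc1, minus strand, chr6:129679028-129679087: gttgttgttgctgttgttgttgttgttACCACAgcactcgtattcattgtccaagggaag
Klrb1c, minus strand, chr6:128788698-128788757: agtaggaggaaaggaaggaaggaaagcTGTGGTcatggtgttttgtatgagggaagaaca
Klre1, plus strand, chr6:129577972-129578001: ttgtgtttaagcTGTGGTtccagagagtca
Klrk1 has the letters 129 bases before its start, Klrc1 87, Klrb1c 89 and Klre1 229, where GENCODE annotates an exon of another Klre1 transcript. A match is a description of these letters and not a binding site.

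Klrd1, the gene for CD94, passed the test in both comparisons with thymus. Its values were 17224, 13285 and 20458 in thymus replicates 1, 2 and 3, then 4044, 2565 and 3447 in liver and 2784, 3420 and 2173 in spleen. Every thymus library was higher than every other library, by at least 3.29-fold, and liver and spleen overlapped. The thymus mean was 5.07 times the liver mean and 6.08 times the spleen mean. On the log2(value + 1) scale the difference was −2.34 ± 0.31 (SE, n = 3 per tissue) in liver vs thymus, with a limma adjusted p of 0.00355, and −2.61 ± 0.31 in spleen vs thymus, with a limma adjusted p of 0.000783. It passed the 0.05 threshold in each of the 9 fits that left out 1 library.

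**Figure D1:**
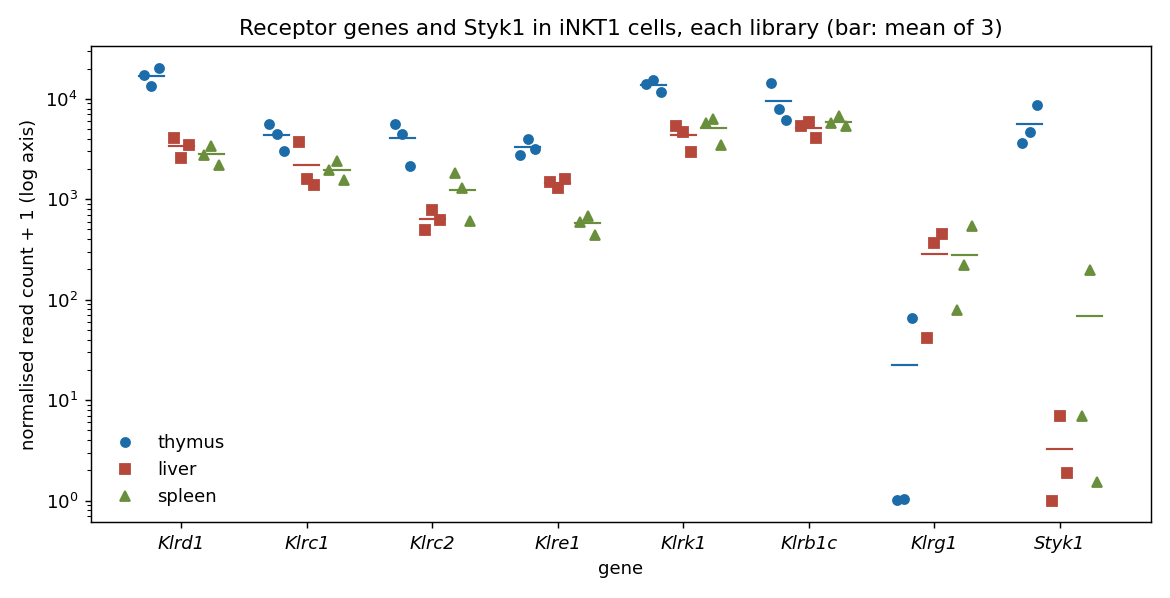
Normalised read count plus 1 (log axis) of the 8 genes in each of 9 libraries, with circles for thymus, squares for liver, triangles for spleen and a bar for the mean of 3. Klrd1, Klrc2, Klre1, Klrk1 and Styk1 were higher in all 3 thymus libraries than in any other library, and Klrg1 was near 0 in 2 thymus libraries.

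The 2 partners of CD94 differed less evenly. Klrc1 was 5615, 4509 and 3050 in thymus, 3695, 1577 and 1370 in liver and 1937, 2403 and 1552 in spleen. Liver replicate 1 lay above the lowest thymus library, so liver and thymus overlapped, whereas all spleen libraries lay below thymus. The log2 differences were −1.09 ± 0.44 in liver vs thymus and −1.14 ± 0.44 in spleen vs thymus, with limma adjusted p of 0.349 and 0.32. Klrc2 was 5622, 4490 and 2151 in thymus, 489.8, 780.1 and 618.9 in liver and 1843, 1297 and 600.8 in spleen. All thymus libraries were above all others, and the thymus mean was 6.49 times the liver mean and 3.28 times the spleen mean. Its log2 differences of −2.61 ± 0.54 and −1.75 ± 0.54 did not pass, with limma adjusted p of 0.058 in liver vs thymus and 0.219 in spleen vs thymus.

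The balance of the activating and the inhibitory partner gene varied between libraries. The ratio of Klrc2 to Klrc1 was 1, 0.996 and 0.705 in thymus, 0.133, 0.495 and 0.452 in liver and 0.952, 0.54 and 0.387 in spleen. No liver ratio reached any thymus ratio, and the spleen ratios overlapped both. These pairs of genes were chosen after their values had been seen, and no test is given. The ratio of Klrc1 to Klrd1 was 0.149 to 0.339 in thymus, 0.397 to 0.914 in liver and 0.696 to 0.714 in spleen. No thymus ratio reached any liver or spleen ratio.

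Klre1, which encodes a receptor that pairs with the products of Klri1 and Klri2, was the only one of the 8 whose liver and spleen values did not overlap. It was 2753, 3956 and 3170 in thymus, 1494, 1281 and 1587 in liver and 597.9, 685.2 and 435.9 in spleen. The 3 tissues did not overlap, in the order thymus, liver, spleen. Spleen fell by 2.53 ± 0.44 on the log2 scale against thymus, with a limma adjusted p of 0.0181, and liver differed by −1.17 ± 0.44, with a limma adjusted p of 0.317. Without spleen replicate 1, 2 or 3 the spleen call was lost. The liver mean was 2.54 times the spleen mean, a log2 difference of 1.36 with a 95% interval of 0.42 to 2.3 and a limma adjusted p of 1. Of all genes tested, 5.97% were higher in liver than in spleen without overlap. The ratio of Klre1 to Klrd1 was 0.369 to 0.499 in liver and 0.2 to 0.215 in spleen, with 0.155 to 0.298 in thymus.

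**Figure D2:**
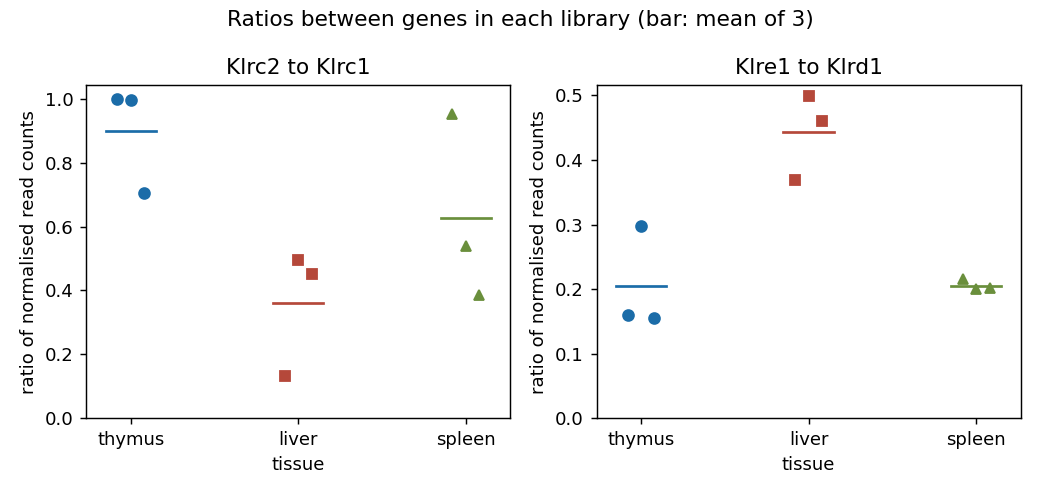
Ratios of normalised read counts in each library, Klrc2 to Klrc1 on the left and Klre1 to Klrd1 on the right, by tissue, with a bar for the mean of 3. The liver libraries had the lowest mean Klrc2 to Klrc1 ratio, 0.36, and the highest mean Klre1 to Klrd1 ratio, 0.443.

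Klrk1, the gene for NKG2D, was high in all tissues and highest in thymus. It was 14029, 15445 and 11780 in thymus, 5394, 4640 and 2932 in liver and 5771, 6279 and 3475 in spleen. Thymus lay above every other library, and liver and spleen overlapped. Liver fell by 1.71 ± 0.31 on the log2 scale against thymus (limma adjusted p = 0.0267), and spleen differed by −1.45 ± 0.31 (limma adjusted p = 0.0625). The liver call was kept in 2 of the 9 fits that left out 1 library. DAP10, its adaptor, did not follow: Hcst was 930.5 to 1852 in thymus, 1046 to 1509 in liver and 1803 to 2150 in spleen, with log2 differences of −0.03 and 0.54. The ratio of Klrk1 to Hcst was 8.34 to 15.1 in thymus, 1.94 to 5.16 in liver and 1.93 to 3.1 in spleen.

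Klrb1c, the gene for NK1.1, differed least. Its values were 14373, 7916 and 6160 in thymus, 5363, 5821 and 4101 in liver and 5677, 6758 and 5339 in spleen. Thymus replicate 1 stood well above the others, the thymus range overlapped that of spleen, and the lowest thymus library exceeded the highest liver library by 1.06-fold. The log2 differences were −0.82 ± 0.32 and −0.59 ± 0.32, with limma adjusted p of 0.335 in liver vs thymus and 0.485 in spleen vs thymus.

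Klrg1, linked in T and NK cells to repeated stimulation and maturity, had the opposite order. In thymus replicates 1 and 2 no read was recovered, which allows up to 3 reads each, and replicate 3 had 51 reads and a value of 63.99. Liver was 40.86, 364.7 and 454.4, and spleen was 78.22, 221.5 and 536.1. All spleen libraries lay above thymus, as for 9.29% of all genes, while liver replicate 1 lay below thymus replicate 3. The log2 differences were 5.55 ± 1.91 in liver vs thymus and 5.69 ± 1.91 in spleen vs thymus, with limma adjusted p of 0.287 and 0.257. Thymus replicate 3 was also the only thymus library to have reads of Cd8a, 256.9, and of Rag1, 486.2, and their part in the Klrg1 value was not tested.

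Styk1 had the widest range of the 8 genes. It was 3610, 4717 and 8600 in thymus, 0, 5.98 and 0.89 in liver and 5.92, 196.7 and 0.53 in spleen. The liver values rest on 0, 7 and 0 reads, and the spleen values on 8, 286 and 1. A count of 0 allows up to 3 reads, a value of 2.58 in liver replicate 1 and of 19 in the shallow liver replicate 3. With liver taken at this upper limit, the lowest thymus library was at least 190-fold higher than any liver library, and it exceeded the highest spleen library 18.4-fold. The highest thymus value was in replicate 3, the library with Rag1 reads, and all 3 thymus libraries lay far above the others. Liver fell by 11.12 ± 1.87 on the log2 scale, with a limma adjusted p of 0.0197, and spleen differed by −8.69 ± 1.87, with a limma adjusted p of 0.0611. Spleen replicate 2 held most of the splenic reads, and the liver call was lost without liver replicate 1, 2 or 3.

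Of the 8 genes, 3 fell in liver vs thymus (Klrd1, Klrk1 and Styk1), beside 0.12% of the 13309 genes tested, and 2 fell in spleen vs thymus (Klrd1 and Klre1), beside 0.21%. In each comparison 6 of the 8 lay below thymus without overlap, against 5.73% of all genes in liver and 6.03% in spleen. Since the genes were listed with these levels known, nothing is read from the contrast with the background. The median log2 difference of the 8 genes was −1.44 in liver and −1.6 in spleen, and that of all genes tested was 0.29 and 0.33. Both comparisons use the same thymus libraries. Without liver and spleen replicate 1, which had the highest summed B cell and myeloid markers within their tissues, the counts were 0 and 1, with Klrd1 at −2.49 (limma adjusted p = 0.0528) in liver and −2.62 (limma adjusted p = 0.0243) in spleen. Fewer libraries also entered that fit. Without thymus replicate 3, the library with Rag1 reads, the counts were 4 and 2.

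**Figure D3:**
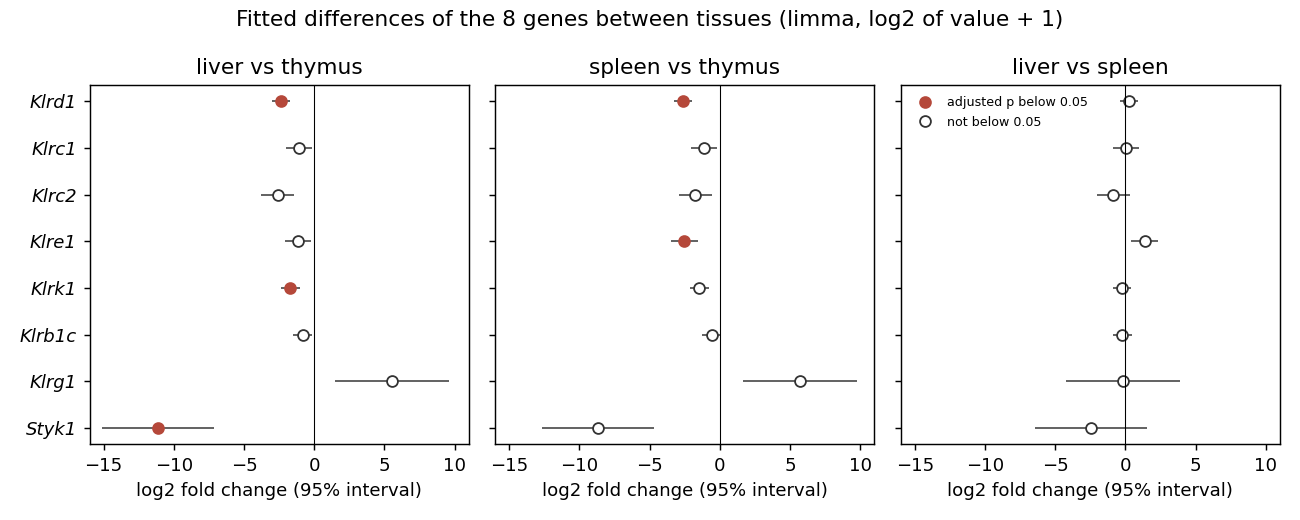
Fitted log2 fold changes of the 8 genes with 95% intervals in the 3 comparisons, filled where the adjusted p was below 0.05. Filled points are Klrd1, Klrk1 and Styk1 in liver vs thymus and Klrd1 and Klre1 in spleen vs thymus, and no point is filled in liver vs spleen.

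Between liver and spleen, 0 of the 8 genes passed with limma, against 0.015% of all genes. With limma 1 gene, Klre1, had an unadjusted p under 0.05, as did 1.72% of all genes in that direction, edgeR called 0 and DESeq2 called 1, again Klre1, with an adjusted p of 0.0487. The intervals bound what these libraries could miss. For Klrd1 the liver level was between 0.764 and 1.88 times that of spleen, for Klrk1 between 0.527 and 1.32 times and for Klrb1c between 0.534 and 1.37 times. For Klrc1 it was between 0.543 and 1.97 times and for Klrc2 between 0.247 and 1.22 times. For Klrg1 the interval ran from 0.0537 to 15.2 times and for Styk1 from 0.0118 to 2.9 times. The liver to spleen differences of Klrg1 and Styk1 are left undetermined at this precision.

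Levels of different genes can be set side by side only per length. Per kilobase of annotated exons, a length that exceeds that of a single transcript for most of these genes, Klrd1 ranked first of the 8 in 8 of the 9 libraries and Klrb1c in spleen replicate 3. Mean normalised count per kilobase in thymus was 13262 for Klrd1, 3203 for Klrb1c and 15.1 for Klrg1, the lowest there. In each liver and spleen library Styk1 was the lowest.

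The genes around them on chromosome 6 were compared in chromosome order, a division made after the values had been seen. From Klrb1c to Styk1 the annotation holds 116 genes, of which 38 were tested, and 17 of these, or 44.7%, were lower in all liver and spleen libraries than in any thymus library. Of the 17, 5 are among the described genes, selected on these values. Without the described genes it was 12 of 31, or 38.7%, beside 2.94% of all genes, and 10 of those 12 are Klra genes. With the Klra genes left out as well it was 2 of 18, or 11.1%. The 23 tested genes from Klre1 to the last Klra gene, which include the Klra genes for Ly49 receptors, had log2 differences below 0 in both comparisons, from −0.55 to −5.62 in liver and from −1.14 to −5.99 in spleen. This also held under both other scalings of the values and with DESeq2 for 23 genes, and with edgeR for the 21 genes it tested. These fits use the same libraries and are not separate evidence. The 23 include Klre1, Klrd1, Klrk1, Klrc2 and Klrc1, which were selected on these values. The share of all genes below 0 in both comparisons was not taken, so the count is only a description. Of the 13 genes before Klre1, 4 were below 0 in both comparisons and 7 above. Cd69, the gene for an early activation receptor, was at 0.61 and 0.37, and Clec2d, which encodes a ligand of an NKR-P1 receptor, at −0.21 and −0.34. Magohb, next to Styk1, was at 0.16 and 0.27.

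**Figure D4:**
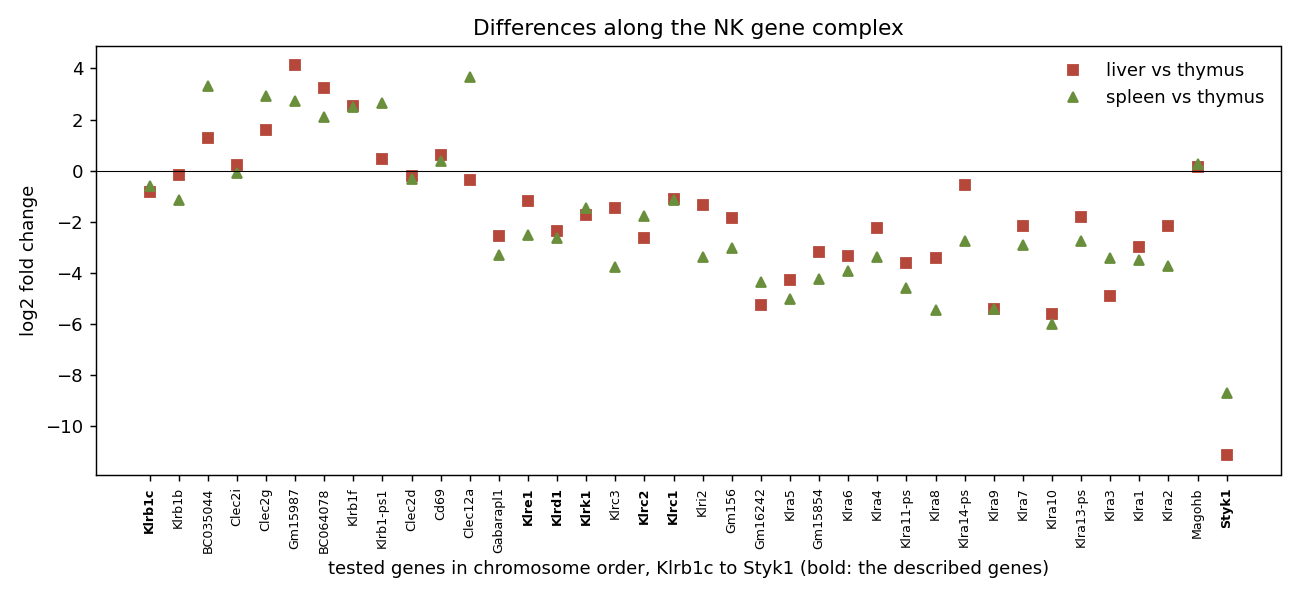
Log2 fold change against thymus of the 38 tested genes from Klrb1c to Styk1, in chromosome order and evenly spaced, with squares for liver and triangles for spleen and the described genes in bold. All 23 genes from Klre1 to Klra2, some of the described genes among them, lie below 0, and the genes before Klre1 lie on both sides.

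Of 36 other receptor genes of the complex, 22 were in the table and 21 were tested. In liver vs thymus 2 fell, Klra5 and Klra9, beside 0.12% of all genes, and 0 rose. In spleen vs thymus 3 fell, Klra1, Klra5 and Klra9, beside 0.21%, and 0 rose. The list was written with earlier results of these data known. Of 23 alternative fits, Klra5 passed in 12 in liver and 20 in spleen, Klra9 in 17 and 17, and Klra1 in 8 in spleen. Klra9 fell by 5.39 in both comparisons, with limma adjusted p of 0.0197 in liver and 0.0158 in spleen. Across alternative fits the number called in this list ran from 0 to 7 in liver and from 0 to 11 in spleen. Klra genes are near copies of each other, so their counts are uncertain. Klrb1f, an NKR-P1 family gene, went the other way without overlap, at 122.9 to 849.8 in thymus, 1203 to 2630 in liver and 1151 to 2193 in spleen (limma adjusted p of 0.177 and 0.166). Klrc3 and Klri2, the latter for a partner of the Klre1 product, were higher in all liver than in all spleen libraries, as Klre1 was, with log2 differences of 2.29 and 2.07 and limma adjusted p of 1. Klrc3 shares 22.7% of its 75-base words with Klrc2.

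Among 27 tested adaptors and signalling genes, only Ptpn6, which encodes the phosphatase SHP-1, passed. Ptpn6 fell in both comparisons, as did 0.12% of all genes in liver and 0.21% in spleen. It was 10409 to 16256 in thymus, 3444 to 4229 in liver and 1692 to 3417 in spleen. Its log2 differences were −1.73 ± 0.32 and −2.42 ± 0.32, with limma adjusted p of 0.0292 and 0.00331. The spleen call held in 23 of 23 alternative fits and the liver call in 13, and was lost, for example, with only libraries numbered 1 and 3 (adjusted p = 0.296). Fcer1g, the adaptor of NK1.1, was 3191 to 6967 in thymus, 189 to 1960 in liver and 236.8 to 1079 in spleen, below thymus without overlap, with limma adjusted p of 0.165 and 0.111. Tyrobp, the gene for DAP12, was 2.56 to 229.8 in thymus, 170 to 396.8 in liver and 156.5 to 1069 in spleen, and its highest value was in spleen replicate 1, where Csf1r and the B cell genes were highest. Their part in it was not tested. The list's median was 0.28 in liver and 0.11 in spleen, beside 0.29 and 0.33 for all genes.

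Of 10 tested ligand genes, 0 passed in either thymus comparison with limma, and at an unadjusted p under 0.05 there were 3 in liver and 2 in spleen. Of all genes, 3.92% were lower and 7.72% higher at that level in liver, and 4.13% and 7.56% in spleen. Across 23 alternative fits, at most 1 ligand gene passed in liver and 0 in spleen. Cdh1, which encodes the KLRG1 ligand E-cadherin, was 3112, 4998 and 707 in thymus, 0, 113.3 and 0.88 in liver and 254.2, 0 and 1.13 in spleen. It lay above all other libraries in thymus, where Klrg1 was lowest, but did not pass (limma adjusted p of 0.177 and 0.184). H2-T23, the Qa-1 gene, was 183.9 to 2190 in thymus, 1702 to 2600 in liver and 1682 to 2869 in spleen.

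None of 20 transcription factors of type 1 lymphocytes passed with limma, and at an unadjusted p under 0.05 there were 3 in liver and 4 in spleen. In none of 23 alternative fits did 1 pass against thymus. Runx3 was 4771 to 7502 in thymus, 2775 to 4578 in liver and 2123 to 4335 in spleen, below thymus without overlap, with log2 differences of −0.78 and −0.79. Tbx21 was 1386 to 5762 in thymus and within that range in all liver and spleen libraries. Eomes, a T-box gene of NK cells, was 395.4 in liver replicate 1, the library with the highest Ncr1, and at most 23.87 elsewhere. Of 9 tested genes linked to the STYK1 protein, among them Becn1 for autophagy and Akt1, 0 passed with limma and at most 1 with DESeq2, with 0 in liver and 1 in spleen at an unadjusted p under 0.05.

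The genes most like each member over the 9 libraries were taken among 8936 candidates by Pearson correlation, a description of libraries that share tissue and depth. Itga1, the gene for the collagen-binding integrin CD49a, followed Klre1 with r = 0.985. Itm2a followed Styk1 with r = 0.944, and Mlst8, an mTOR complex subunit, was among the 2 closest genes of both Klrd1 (r = 0.964) and Styk1 (r = 0.943). Stx11 followed Klrg1 with r = 0.984, and Pi4ka followed Klrc1 with r = 0.983. Among the members, Klrk1 and Styk1 had r = 0.92, Klrd1 and Styk1 0.9, Klrb1c and Klre1 0.44, and Klrc1 and Klrg1 −0.92. The members were selected on their tissue levels in these same libraries, so nothing is read from their correlations. Klrg1 and Styk1 also include values from 0 reads.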

How the data were processed

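RNA-seq of sorted iNKT1 cells was given as 1 table of the authors' deposited values, a signal in the form of normalised read counts for 14004 genes in 9 libraries. Per the submitters' processing notes, Trimmomatic 0.33, TopHat2 2.1.0, HTSeq 0.6.1, edgeR and mm10 were used, with roles, strand and scaling not given in the sources used here. Low values rise in steps of 1 read: among 15737 such values, up to 20 reads, 93.5% were whole reads to within 0.1 (72.9% in liver replicate 3). Because the values are not counts, the planned count test gave way to its stated fallback, limma-trend (limma 3.58.1, R 4.3.3) on log2(value + 1), for the 13309 genes that reached 1 in 3 libraries. All 9 libraries entered 1 fit with a term per tissue. P-values are two-sided with Benjamini-Hochberg adjustment over all genes and a threshold of 0.05. edgeR 4.0.16 and DESeq2 1.42.0 ran on recovered reads as alternatives. The procedure was tested on simulated data. Symbols matched for 13359 genes. The column name of thymus replicate 2 has 1 letter more than the others, with no explanation in the labels.

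The members and lists were chosen with earlier results of these data known. Text names all members, each list's genes past the threshold and up to 4 others per list in list order; other genes named here were chosen after their values were seen. Reads carry no stated molecular identifiers, so limits from a count of 0 cover counting error only. The labels do not say whether a replicate number marks shared mice, and the fit was planned without a replicate block. Correlations of deviations were 0 to 0.09 between same-numbered libraries and −0.09 to 0.05 between other pairs. Their size does not decide whether mice were shared.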

Additional observations from a re-analysis of the deposited data

How the results depend on the processing

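Under 22 alternative settings and 1 more chosen after seeing the data, the fit without liver and spleen replicate 1, none of the 8 genes reversed its direction against thymus. Klrd1 passed in 22 of these 23 in liver vs thymus and in 23 of 23 in spleen vs thymus, Styk1 in 18 in liver and 3 in spleen, Klrk1 in 12 and 3, and Klre1 in 1 and 17. The number of the 8 genes called in liver vs thymus, 3, became 5 with DESeq2, 1 with only the libraries numbered 1 and 3, 0 without liver and spleen replicate 1, and 1 to 4 when 1 library was left out. In spleen vs thymus, 2 became 5 with DESeq2, 1 with only the 6 libraries compared, 1 with the libraries numbered 1 and 3, 1 without liver and spleen replicate 1, and 1 to 2 when 1 library was left out. In liver vs spleen, 0 became 1 with DESeq2 and stayed at 0 when 1 library was left out. The cause was not tested beyond the smaller number of libraries in some fits.

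With the number as a replicate block, limma called 3, 3 and 0 of the 8 genes in the 3 comparisons, and edgeR 3, 4 and 0. In 13 of 18 cases a library correlated best with its own number, a hint from the data and not from the design, and whether the numbers mark shared mice is not known. The differences of Klrc1 and Klrg1 between liver and spleen, 0.05 and −0.15, changed sign. Klrc1 was −0.2 with array weights, −0.4 without liver replicate 1, −0.11 without spleen replicate 3, 0.32 without liver replicate 3 and −0.39 without liver and spleen replicate 1. Klrg1 was 0.16 with array weights, 0.04 with edgeR, 0.06 with DESeq2, 0.95 without liver replicate 1, −0.86 without spleen replicate 1, 0.53 without spleen replicate 3 and 0.24 without liver and spleen replicate 1.

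Over all genes, 43 were called in liver vs thymus, 53 in spleen vs thymus and 2 in liver vs spleen. DESeq2 called 478, 536 and 28, edgeR 17, 32 and 2, fits of only the 6 libraries compared 12, 16 and 6, and the libraries numbered 1 and 3 gave 12, 19 and 0. Array weights called 18 in liver vs spleen, and limma with the block 4. Without liver and spleen replicate 1 the counts were 2, 13 and 0, and leaving out 1 library gave 8 to 151, 9 to 140 and 0 to 3. The highest of these, 151 and 140, came without thymus replicate 3. The median of all genes against thymus, 0.29 in liver and 0.33 in spleen, was −0.03 and 0 with edgeR. The split of calls in spleen vs thymus, 25 higher and 28 lower, became 22 and 16 after scaling to equal column totals.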

Other observations

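Among signalling genes of the receptors, Vav2, a guanine nucleotide exchange factor, was 0.02, 5.81 and 6.32 in thymus, 7.8, 217.1 and 157.9 in liver and 1090, 198.1 and 232.1 in spleen. All liver and spleen libraries lay above thymus, but the limma adjusted p was 0.392 in liver and 0.164 in spleen. The highest value was in spleen replicate 1, which also had the most reads of macrophage and B cell genes, and their part in it was not tested. H2-K1, a classical class I gene, was 22561 to 30646 in thymus and 47207 to 57141 in liver, with a limma adjusted p of 0.0516.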
